A study of Homo sapiens with 8 samples.

Results

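The 9 genes described here encode the transcription factor NRF2 (gene NFE2L2), its adaptor KEAP1 and 7 enzymes whose transcription NRF2 is known to drive (NQO1, HMOX1, GCLM, GCLC, TXNRD1, SRXN1 and ME1). They were taken by name from the 61906 genes of an RNAseq table of U251 cells, a human glioblastoma line labelled wild type. Cultures had received DMSO (vehicle, 4 libraries) or 100 nM LLY-283, an inhibitor of the arginine methyltransferase PRMT5, also in 4 libraries. Treatment lasted 24 h in both groups, and the comparison asks how inhibition of PRMT5 changed expression. The labels call the libraries biological replicates but do not name separate cultures, so the p-values measure the spread between these libraries, which may be partly technical. Levels are in TPM, the share of all transcripts in a library corrected for their length. TPM keeps no read number, so the depth behind each value is unknown and no counting interval can be given. Of the 9 genes, 8 averaged 1 TPM or more across the libraries and were tested, and ME1 did not.

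NRF2 is the main transcriptional regulator of the response to oxidants and electrophiles. In unstressed cells KEAP1 holds NRF2 to the CUL3 ubiquitin ligase and NRF2 protein is degraded. When cysteines of KEAP1 are modified, NRF2 accumulates, pairs with a small MAF protein and binds antioxidant response elements near its target genes. Much of this control acts on NRF2 protein, which RNAseq does not measure. The target genes make and recycle glutathione and thioredoxin, detoxify quinones, break down haem and supply NADPH, and in glioblastoma and other tumors the program is known for its part in resistance to radiation and drugs.

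The element is commonly written TGACNNNGC, and these 9 letters were searched on both strands of the RefSeq promoter windows of GRCh38.p14, from 250 bases before to 50 bases after each start. The windows covered 8 of the 9 genes, all but HMOX1, with 11 starts. The letters were found in 5 of the 11 windows, belonging to 4 genes (KEAP1, GCLM, TXNRD1 and ME1), and in 13.3% of 35116 windows of all genes. These 5 windows are printed because KEAP1 and 3 target genes hold the letters there. Capitals mark the matches, and a match on the opposite strand appears as its reverse complement.
GCLM, chr1:93909381-93909680, minus strand: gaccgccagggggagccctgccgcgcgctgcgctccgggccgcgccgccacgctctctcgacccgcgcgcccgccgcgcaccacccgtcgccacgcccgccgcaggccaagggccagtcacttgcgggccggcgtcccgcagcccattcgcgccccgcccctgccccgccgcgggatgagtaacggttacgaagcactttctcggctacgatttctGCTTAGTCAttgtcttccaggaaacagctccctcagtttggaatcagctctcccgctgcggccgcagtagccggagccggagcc
KEAP1, chr19:10502722-10503021, minus strand, the downstream of its starts: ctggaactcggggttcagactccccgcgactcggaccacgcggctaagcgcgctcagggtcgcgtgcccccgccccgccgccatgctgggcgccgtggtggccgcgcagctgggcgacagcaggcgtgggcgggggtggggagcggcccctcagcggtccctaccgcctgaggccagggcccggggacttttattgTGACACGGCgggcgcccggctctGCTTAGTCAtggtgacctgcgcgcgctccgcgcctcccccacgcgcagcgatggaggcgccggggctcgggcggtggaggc
TXNRD1, chr12:104215529-104215828, plus strand, most upstream start: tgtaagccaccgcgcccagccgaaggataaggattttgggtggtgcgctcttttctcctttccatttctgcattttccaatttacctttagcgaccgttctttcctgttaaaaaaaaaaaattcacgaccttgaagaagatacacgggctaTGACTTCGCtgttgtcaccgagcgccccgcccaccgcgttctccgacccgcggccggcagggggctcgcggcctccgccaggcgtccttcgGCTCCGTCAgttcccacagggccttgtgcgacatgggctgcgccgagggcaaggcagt
TXNRD1, chr12:104286782-104287081, plus strand, downstream start: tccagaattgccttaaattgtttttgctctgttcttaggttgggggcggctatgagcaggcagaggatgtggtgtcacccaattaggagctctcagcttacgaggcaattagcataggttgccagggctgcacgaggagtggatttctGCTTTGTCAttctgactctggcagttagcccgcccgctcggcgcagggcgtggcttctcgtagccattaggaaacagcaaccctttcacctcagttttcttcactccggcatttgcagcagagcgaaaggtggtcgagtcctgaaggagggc
ME1, chr6:83431002-83431301, minus strand: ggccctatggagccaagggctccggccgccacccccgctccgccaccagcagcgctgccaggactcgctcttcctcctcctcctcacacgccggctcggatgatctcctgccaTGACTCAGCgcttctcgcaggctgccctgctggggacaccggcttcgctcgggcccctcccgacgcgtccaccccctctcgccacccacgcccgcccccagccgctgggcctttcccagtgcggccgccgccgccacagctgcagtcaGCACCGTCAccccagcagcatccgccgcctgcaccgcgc
GCLM and KEAP1 carried the same 9 bases, TGACTAAGC on the strand opposite to the gene, from -34 to -26 relative to the GCLM start and from -31 to -23 relative to the KEAP1 start. ME1 carried TGACTCAGC, whose first 7 bases also spell the AP-1 motif, from -137 to -129. The other matches were TGACACGGC in KEAP1, TGACTTCGC, TGACGGAGC and TGACAAAGC in TXNRD1 and TGACGGTGC in ME1. A match describes letters only, and binding was not measured. The windows of NQO1, GCLC, SRXN1 and NFE2L2 held no match, which says nothing of sequence outside them.

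LLY-283 left the expressed genes of the group at nearly the level seen with vehicle. None of the 8 tested genes had an adjusted p-value under 0.05 (limma, Benjamini-Hochberg over 14478 genes), against 26.2% of all genes tested (8.61% higher and 17.6% lower in LLY-283-treated cells). At an unadjusted p under 0.05 the count was also 0 of 8, against 5588 of the 14478 genes. All 8 log2 fold changes were smaller than 0.1 in size, against 41.3% of all genes tested, and their median was 0.020 against -0.047. That count holds for the deposited scaling. The largest change of the 8 was 0.14 in size with median-of-ratios scaling, 0.18 with values corrected for GC content and transcript length, and 0.065 to 0.12 with each library left out (0.12 without vehicle replicate 1). Because these genes are abundant, the 6646 genes averaging 20 TPM or more (a level chosen after the data had been seen) are a closer reference. Of those, 31.8% were significant and 53.8% changed by less than 0.1. Significant changes exceeding 1.5-fold were found in 3.87% of all genes (0.394% higher, 3.48% lower) and in none of the 8. The 95% intervals of the 8 fold changes together spanned 0.920 to 1.16, so a 1.5-fold change lay outside each of them. The 4 vehicle and 4 LLY-283 values overlapped for all 9 genes, whereas 29.2% of all genes tested had groups without overlap.

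**Figure D1:**
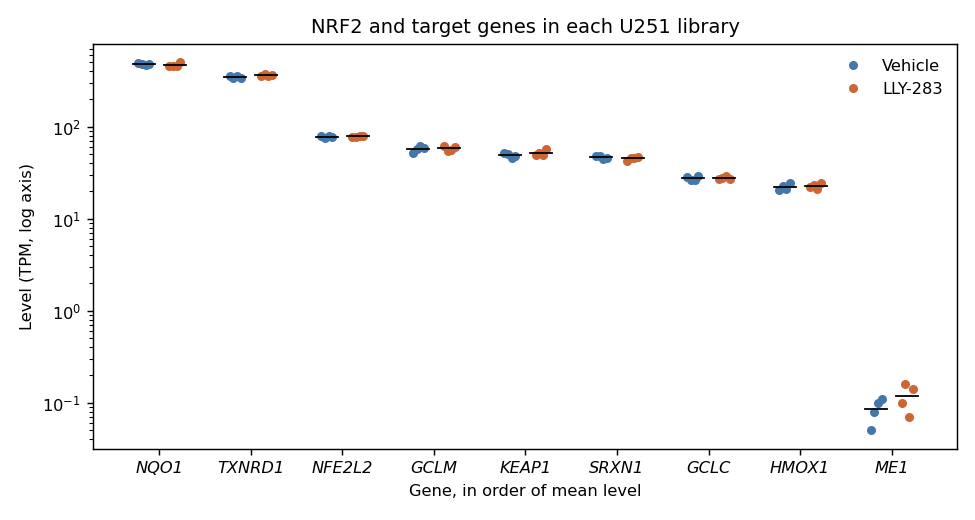
Level of each gene in TPM (log axis) in the 4 vehicle and 4 LLY-283 libraries; points are libraries, in replicate order from left to right, and lines are group means. The groups overlap for every gene, and the genes range from a mean of 474 TPM (NQO1) to 0.101 TPM (ME1).

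**Figure D2:**
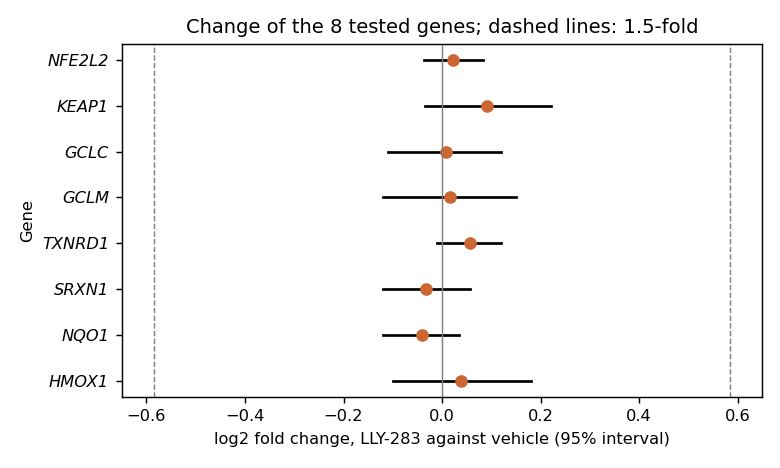
Fitted log2 fold change of LLY-283 against vehicle for the 8 tested genes with 95% intervals from limma (n = 4 per group). Every interval includes 0 and ends well inside the dashed lines at 1.5-fold.

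The transcription factor and its adaptor were examined first. NFE2L2 (ENSG00000116044, chromosome 2, 177218667 to 177392756 of GRCh38, 5 exons in the canonical transcript) was expressed at 78.61, 75.8, 78.56 and 77.09 TPM with vehicle. With LLY-283 it was at 78.02, 77.57, 79.7 and 79.84 TPM. The 8 libraries were thus within a few TPM of each other, and only 0.919% of all genes tested varied less within the groups. The log2 fold change came to 0.023 (standard error 0.0271, 95% interval -0.037 to 0.084, adjusted p = 0.561, limma). The span given for NFE2L2 covers all 65 of its annotated transcripts and overlaps HNRNPA3 and AGPS, both on the opposite strand. Noncoding genes overlap it on the same strand. HNRNPA3 was at 482 ± 8.69 TPM with vehicle and 494 ± 20.4 TPM with LLY-283 (SD, n = 4). AGPS was at 207 ± 12.4 TPM with vehicle and 217 ± 7.47 TPM with LLY-283 (SD, n = 4). Whether reads were counted by strand is not given in the sources used here.

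KEAP1 (ENSG00000079999, chromosome 19, 10486125 to 10503558, 6 exons), the substrate adaptor that presents NRF2 for ubiquitination, had 51.64, 50.01, 45.39 and 47.39 TPM in the vehicle libraries. The LLY-283 libraries had 49.33, 52.0, 49.32 and 56.68 TPM. The highest value was that of LLY-283 replicate 4, and the other 3 lay inside or just above the vehicle range. Its log2 fold change, 0.092, was the largest of the group (standard error 0.0561, 95% interval -0.034 to 0.22, adjusted p = 0.260). It was 0.048 without LLY-283 replicate 4, 0.060 without vehicle replicate 3 and 0.080 without vehicle replicate 4, and in these 3 cases another of the 8 genes changed more. KEAP1 passed the threshold when values were corrected for GC content and transcript length (log2 fold change 0.18, adjusted p = 0.0482; an alternative added after the data had been seen), and not when a replicate block was added (adjusted p = 0.0760). The level of KEAP1 relative to NFE2L2 within a library, a value that 1 scaling factor per library leaves in place, lay between 0.578 and 0.660 with vehicle and between 0.619 and 0.710 with LLY-283. The difference of 0.068 on the log2 scale was within the spread (exact permutation test, two-sided, n = 4 per group, p = 0.314, 0.628 after adjustment over 2 ratios; the smallest possible p is 0.0286). It ran from 0.030 without vehicle replicate 3, or 0.031 without LLY-283 replicate 4, to 0.10 without LLY-283 replicate 3.

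The 3 genes whose values followed NFE2L2 most closely, by the root mean square difference of log2 values from their own vehicle mean over the 8 libraries, were TFG, APP and MSN. Their differences from NFE2L2 were 0.0138, 0.0143 and 0.0163, against a median of 0.107 over the 9089 other genes averaging 10 TPM or more. Like NFE2L2, all 3 were almost flat, with log2 fold changes of 0.022, 0.014 and 0.023.

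Glutathione is made in 2 steps, of which the first is catalysed by glutamate-cysteine ligase, a dimer of a catalytic subunit (GCLC) and a modifier subunit (GCLM). GCLC (ENSG00000001084, chromosome 6, 53497341 to 53616970, 16 exons) was at 28.61, 26.08, 26.07 and 29.33 TPM with vehicle and at 26.79, 27.36, 29.22 and 27.17 TPM with LLY-283. All 4 LLY-283 values fell inside the vehicle range, and the log2 fold change came to 0.0071 (standard error 0.0512, 95% interval -0.11 to 0.12, adjusted p = 0.936). GCLM (ENSG00000023909, chromosome 1, 93885199 to 93909456, 7 exons, overlapping no other gene) was at 51.25, 57.46, 61.22 and 59.21 TPM with vehicle and at 61.46, 54.66, 56.14 and 59.39 TPM with LLY-283. The lowest value was a vehicle library and the highest an LLY-283 library, yet the means, 57.3 ± 4.31 and 57.9 ± 3.08 TPM (SD, n = 4), were nearly equal. GCLM changed by 0.017 on the log2 scale (standard error 0.0593, 95% interval -0.12 to 0.15, adjusted p = 0.856). GCLM transcripts were more abundant than GCLC transcripts in every library, by 1.79 to 2.34 times with vehicle and by 1.92 to 2.29 times with LLY-283. That ratio differed between the groups by 0.010 on the log2 scale (exact permutation test, two-sided, n = 4 per group, p = 1).

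TXNRD1 and SRXN1 belong to the thioredoxin system. TXNRD1 encodes the cytosolic thioredoxin reductase, a selenoprotein that keeps thioredoxin reduced with electrons from NADPH. TXNRD1 (ENSG00000198431, chromosome 12, 104215779 to 104350307, 17 exons) was at 358.3, 338.91, 354.06 and 338.07 TPM with vehicle and at 350.81, 368.8, 358.23 and 366.02 TPM with LLY-283. Of the LLY-283 values, 2 exceeded all vehicle values and 2 did not. The log2 fold change came to 0.056 (standard error 0.0295, 95% interval -0.011 to 0.12, adjusted p = 0.196), with the smallest unadjusted p of the group, 0.0902. Its change became significant with median-of-ratios scaling (0.10, adjusted p = 0.0472) and with the GC and length trend removed (0.14, adjusted p = 0.0158), but not when a replicate block was added to that correction (0.14, adjusted p = 0.0523). EID3, which overlaps TXNRD1 on the same strand, was at 3.52 ± 0.394 TPM with vehicle and 3.31 ± 0.169 TPM with LLY-283 (SD, n = 4).

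SRXN1 (ENSG00000271303, chromosome 20, 646615 to 653200, 2 exons) encodes sulfiredoxin, which restores over-oxidised peroxiredoxins. It was at 47.39, 47.36, 44.44 and 45.6 TPM with vehicle and at 42.77, 45.24, 45.61 and 47.11 TPM with LLY-283. Only the lowest LLY-283 value, in replicate 1, left the vehicle range. Its log2 fold change, -0.032 (standard error 0.0393, 95% interval -0.12 to 0.056, adjusted p = 0.582), turned to 0.012 with median-of-ratios scaling.

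NQO1 (ENSG00000181019, chromosome 16, 69706996 to 69726668, 6 exons), the quinone reductase most often used as a readout of NRF2, was the most abundant of the 9 genes, above 98.0% of the genes tested. It was at 491.98, 482.19, 472.38 and 476.79 TPM with vehicle. With LLY-283 it was at 454.41, 457.01, 460.58 and 498.97 TPM. LLY-283 replicates 1 to 3 lay below all 4 vehicle libraries and replicate 4 lay above them. The log2 fold change came to -0.041 (standard error 0.0338, 95% interval -0.12 to 0.035, adjusted p = 0.410). Without LLY-283 replicate 4 it was -0.072 with an adjusted p of 0.0227, a fall of a few percent. Replicate 4 also stood apart in the share of TPM from the 37 genes of the mitochondrial genome, 7.19% against 10.2 to 11.0% in the other 7 libraries. With these 37 genes left out, an alternative added after the data had been seen, NQO1 had a log2 fold change of -0.050 (adjusted p = 0.153). Quantile normalization gave -0.080 (adjusted p = 0.0119) and median-of-ratios scaling 0.0042 (adjusted p = 0.952), so the sign depends on the scaling.

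HMOX1 (ENSG00000100292, chromosome 22, 35380361 to 35394214, 5 exons) encodes heme oxygenase 1, which opens the haem ring and is among the most inducible stress genes. Its values were 20.44, 22.49, 20.9 and 24.12 TPM with vehicle and 21.99, 22.94, 21.1 and 24.22 TPM with LLY-283. The ranges nearly coincided, and the log2 fold change came to 0.038 (standard error 0.0632, 95% interval -0.10 to 0.18, adjusted p = 0.694). With each library left out it ran from 0.0037 (without LLY-283 replicate 4) to 0.084 (without vehicle replicate 4). It passed the threshold only with the GC and length correction and a replicate block together (0.14, adjusted p = 0.0432). HMOX1 was the lowest of the expressed target genes, and the mean of NQO1 over the 8 libraries was 21.3 times its own.

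ME1 (ENSG00000065833, chromosome 6, 83210402 to 83431051, 14 exons), the cytosolic malic enzyme that yields NADPH from malate, was close to the bottom of the scale. It was listed at 0.05, 0.08, 0.1 and 0.11 TPM with vehicle and at 0.1, 0.16, 0.07 and 0.14 TPM with LLY-283. These values overlap and are a few steps of the 2 decimals kept in the table, so no fold change is given. The gene with the TGACTCAGC match was almost silent in these cells, and the other genes with matches were expressed at 50.2 TPM (KEAP1), 57.6 TPM (GCLM) and 354 TPM (TXNRD1) on average.

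Across the 8 libraries the order of the mean levels was NQO1 (474 TPM), TXNRD1 (354 TPM), NFE2L2 (78.1 TPM), GCLM (57.6 TPM), KEAP1 (50.2 TPM), SRXN1 (45.7 TPM), GCLC (27.6 TPM), HMOX1 (22.3 TPM) and ME1 (0.101 TPM). GCLM and KEAP1 overlapped in both groups, and KEAP1 and SRXN1 overlapped with vehicle but not with LLY-283. All other neighbours were separated in both groups. The log2 fold changes depended on the scaling. With quantile normalization NQO1 went from -0.041 to -0.080 and HMOX1 from 0.038 to 0.081, while NFE2L2 was at 0.022 against 0.023. NFE2L2 was at 0.068 with median-of-ratios scaling and at 0.078 with the GC and length trend removed, and was significant in neither. With median-of-ratios scaling all 8 were above 0 (median 0.065, against -0.0022 for all genes tested), and with the GC and length trend removed all 8 were above 0 again (median 0.091, against 0.034).

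**Figure D3:**
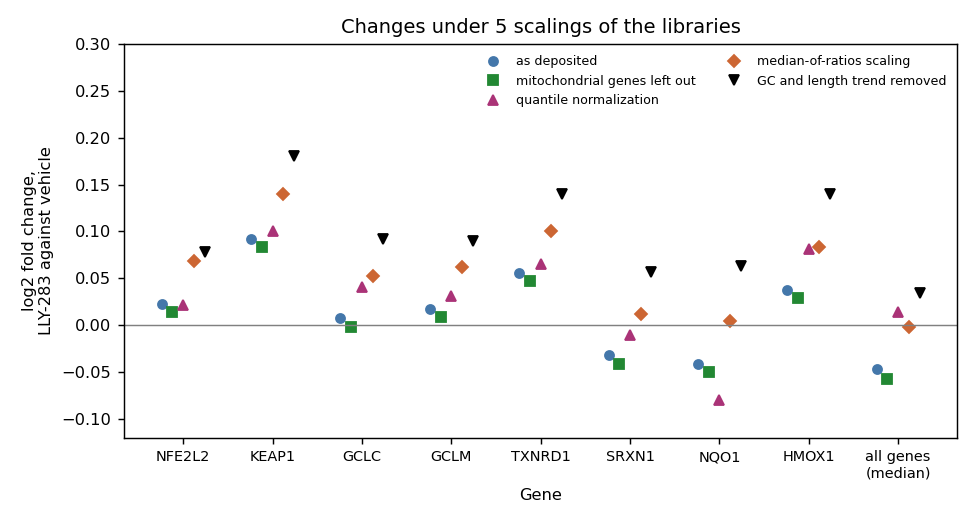
Log2 fold change of LLY-283 against vehicle for the 8 tested genes, and the median of all genes tested, under 5 ways of scaling the libraries. NQO1 and SRXN1 lie below 0 in the deposited values and above 0 with median-of-ratios scaling.

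The rest of the pathway was described with 69 other genes in 7 groups by role, 66 of which were tested; GPX2, AKR1C2 and ALDH3A1 never exceeded 0.82 TPM. Of the 66, 22 genes (33.3%) had an adjusted p-value under 0.05, 4 higher and 18 lower in LLY-283-treated cells, against 26.2% of all genes tested (8.61% higher and 17.6% lower) and 31.8% of the genes averaging 20 TPM or more (960 higher and 1156 lower of 6646). The median over the 66 was -0.071 on the log2 scale, that over all genes tested -0.047 and that over the genes averaging 20 TPM or more -0.0038. The counts of significant genes among the 66 depend on the processing. With median-of-ratios scaling 5 were higher and 14 lower, and with quantile normalization 4 were higher and 20 lower. With the GC and length trend removed 10 were higher and 10 lower, and the median was 0.0092. Among all genes tested, 32.9% of the significant genes were higher as deposited, 50.8% with median-of-ratios scaling, 50.7% with quantile normalization and 63.7% with that trend removed. Of the 22 genes, 10 stayed significant in the same direction in each of the 20 alternatives (19 for AKR1B10 and TXNRD3, which the filter at 5 TPM removed), namely SQSTM1, SLC7A11, GSTM3, TXNRD3, TKT, SLC48A1, AKR1B10, PIR, CAT and CCS. How many of all significant genes did so was not counted, so the 10 of 22 has no background share beside it. In bulk RNA, a lower level in every cell and loss from part of the cells cannot be told apart.

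**Figure D4:**
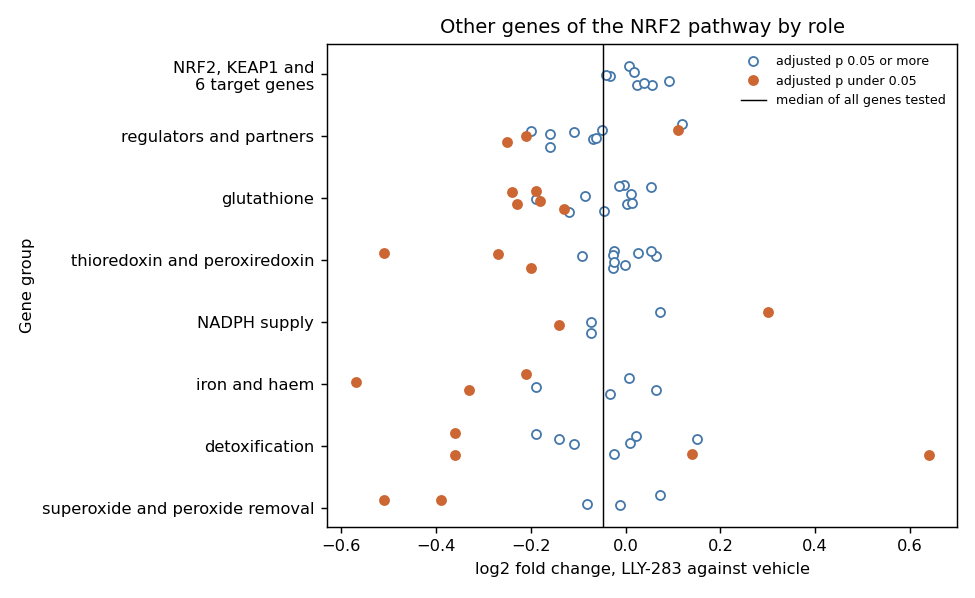
Log2 fold change of LLY-283 against vehicle for the 8 tested genes (top row) and 66 other genes of the NRF2 pathway by role; filled points have an adjusted p-value under 0.05 and the line marks the median of all genes tested, -0.047. The top row lies between -0.041 and 0.092, and the filled points of the other rows lie mostly to the left.

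Among regulators and partners, 3 of 11 genes (27.3%, against 26.2% of all genes tested) were significant, 1 higher and 2 lower. SQSTM1, the autophagy receptor p62 that binds KEAP1 and is itself an NRF2 target, fell from 366.62, 377.59, 364.89 and 374.44 TPM to 306.33, 305.0, 303.76 and 337.08 TPM. The groups did not overlap, with a log2 fold change at -0.25 (standard error 0.0364, adjusted p = 0.00139); SQSTM1 overlaps MGAT4B and MRNIP on the opposite strand. CUL3, the scaffold of the ligase that KEAP1 serves, rose from 59.4 to 64.4 TPM on average (log2 fold change 0.11, standard error 0.0348, adjusted p = 0.0374) but lost the threshold in 11 of 20 alternatives, among them the removal of any 1 library other than vehicle replicate 1 (adjusted p = 0.0511 to 0.101). The small MAF gene MAFG, named after its values had been seen, had a log2 fold change of -0.21 (adjusted p = 0.00223, limma). It overlaps SIRT7 on the same strand. With the GC and length trend removed MAFG was at -0.12 (adjusted p = 0.023). It missed the threshold in 1 alternative, that correction with a replicate block added (-0.12, adjusted p = 0.0624).

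In the glutathione group 5 of 15 genes (33.3%) were significantly lower and none significantly higher, against 17.6% and 8.61% of all genes tested. Only GSTM3 and SLC7A11 of these stayed significant in every alternative. GSTM3, a glutathione transferase with close relatives between which reads may be divided, fell from 70.61, 76.71, 77.26 and 77.41 TPM to 62.37, 62.94, 62.89 and 66.87 TPM (log2 fold change -0.24, standard error 0.0396, adjusted p = 0.00230, or -0.14 and adjusted p = 0.0370 with the GC and length trend removed). GSTM3 overlaps GSTM5 on the opposite strand. SLC7A11, the cystine importer that supplies glutathione synthesis, was named after its values had been seen. It fell from 69.77, 65.06, 72.67 and 64.85 TPM to 59.61, 58.76, 59.61 and 54.34 TPM (log2 fold change -0.23, adjusted p = 0.00766). For both genes every LLY-283 library lay below every vehicle library. Genes that finish or recycle glutathione were flat, with log2 fold changes of -0.0029 for glutathione synthetase (GSS, adjusted p = 0.959) and 0.0032 for glutathione reductase (GSR, adjusted p = 0.958).

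The thioredoxin and peroxiredoxin group had 3 of 12 genes significant, all lower, a share of 25.0% against 17.6% lower over all genes tested. Of these, TXNRD3 alone stayed significant in every alternative that tested it. TXNRD3, a relative of TXNRD1, fell from between 4.16 and 4.45 TPM to between 2.79 and 3.38 TPM (log2 fold change -0.51, standard error 0.0892, adjusted p = 0.00325, or -0.33 and adjusted p = 0.0206 with quantile normalization). None of the 6 peroxiredoxin genes was significant, and their log2 fold changes ran from -0.093 (PRDX2) to 0.053 (PRDX4). In the NADPH group 1 of 5 genes was significantly higher and 1 significantly lower (40.0% in all, against 26.2% of all genes tested). TKT, a transketolase of the pentose phosphate pathway, rose from 1079.23, 1138.15, 1076.98 and 1093.12 TPM to 1289.1, 1323.04, 1314.58 and 1473.12 TPM. All LLY-283 values exceeded all vehicle values (log2 fold change 0.30, standard error 0.0426, adjusted p = 0.00116). TALDO1, a transaldolase of the same branch, had a log2 fold change of -0.14 (adjusted p = 0.0334, limma), but its groups overlapped. It lost the threshold in 12 of 20 alternatives. Among them was the removal of any 1 library other than LLY-283 replicate 4, with the change at -0.12 to -0.14 (adjusted p = 0.0643 to 0.0857). With the GC and length trend removed TALDO1 was at -0.054 (adjusted p = 0.463).

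Of the iron and haem genes 3 of 7 were significantly lower (42.9%, against 17.6% of all genes tested). Of these, only SLC48A1 stayed significant in every alternative. SLC48A1, which carries haem across membranes, fell from 7.56, 8.74, 8.41 and 8.12 TPM to 5.48, 5.38, 4.88 and 6.24 TPM (log2 fold change -0.57, standard error 0.0847, adjusted p = 0.00137); it overlaps RAPGEF3 and HDAC7 on the opposite strand. The ferritin genes FTL (log2 fold change -0.033, adjusted p = 0.627) and FTH1 (0.0068, adjusted p = 0.952) did not pass the test, and FTH1 has many processed copies. In the detoxification group 2 of 11 genes were significantly higher and 2 significantly lower (36.4% in all, against 26.2%). Of these, only AKR1B10 and PIR stayed significant in every alternative that tested them. AKR1B10, an aldo-keto reductase that responds to NRF2 and has a near copy in AKR1B15, rose at a low level from 2.62, 2.15, 2.45 and 2.14 TPM to 2.89, 4.64, 3.49 and 4.0 TPM. As deposited, it was the one gene of the 66 with a significant change above 1.5-fold (log2 fold change 0.64, standard error 0.151, adjusted p = 0.0131). It stayed significant but fell under 1.5-fold with a pseudocount of 0.5 (0.57) or 1 (0.50) and without LLY-283 replicate 2 (0.54). SLC48A1 exceeded 1.5-fold without LLY-283 replicate 4 (-0.64) or vehicle replicate 1 (-0.61). PIR, an iron-binding nuclear protein, fell from 91.42, 89.92, 87.55 and 88.19 TPM to 67.59, 66.39, 68.4 and 75.11 TPM (log2 fold change -0.36, standard error 0.0410, adjusted p = 0.000381); it overlaps BMX on the opposite strand. OSGIN1, named after its values had been seen, had a log2 fold change of -0.36 (adjusted p = 0.0110, limma) and overlaps MLYCD on the same strand. It lost the threshold in 2 alternatives. These were quantile normalization (-0.24, adjusted p = 0.0743) and the GC and length correction with a replicate block (-0.26, adjusted p = 0.0664).

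Among the 5 genes for removal of superoxide and peroxide, 2 were significantly lower (40.0%, against 17.6% of all genes tested). CAT, catalase, which splits hydrogen peroxide in peroxisomes, fell from 51.13, 47.78, 53.93 and 48.68 TPM to 36.53, 34.56, 35.25 and 35.08 TPM. The groups were far apart, and the difference was -0.51 on the log2 scale (standard error 0.0432, adjusted p = 8.96e-05). CCS, the copper chaperone of SOD1, named after its values had been seen, had a log2 fold change of -0.39 (adjusted p = 0.000574), from 37.9 ± 1.42 to 28.9 ± 1.60 TPM (SD, n = 4). SOD1 itself was at a log2 fold change of -0.082 and did not pass the test (adjusted p = 0.187).

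Of the 6 genes checked as markers of a glial tumor line, VIM (4018.59 to 4390.24 TPM) and CD44 (1530.9 to 1731.9 TPM) were abundant and S100B was low, at 2.34 to 4.94 TPM. Mean levels with vehicle and with LLY-283 were 810 and 680 TPM for GFAP, 483 and 429 TPM for NES and 103 and 85.6 TPM for SOX2. They were 4300 and 4120 TPM for VIM and 4.34 and 3.21 TPM for S100B. CD44 alone had a higher mean with LLY-283, 1700 TPM against 1580 TPM with vehicle. The part of these genes in the results above was not tested. The summed level of the 5 leukocyte markers was 0.33 to 0.59 TPM with vehicle and 0.49 to 1.12 TPM with LLY-283, and CD3E and AIF1 were at 0 in all libraries. The 3 endothelial markers summed to at most 0.59 TPM and the 3 epithelial markers to at most 0.67 TPM in any library, and the 3 erythroid markers were at 0. Correlations of log2 values between replicates over the genes tested lay between 0.963 and 0.971.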

How the data were processed

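U251 RNAseq values were available for 4 vehicle and 4 LLY-283 libraries. Oligo-dT captured RNA was sequenced, and per the study's methods the authors trimmed adapters with Cutadapt 1.18, mapped reads to GRCh38 with STAR and estimated expression with RSEM on a GENCODE annotation. The submitters' processing notes give STAR 2.7.0f and RSEM 1.3.1, and the methods give other versions of both. The values the authors deposited are TPM per gene, rounded to 2 decimals. Here log2(TPM + 0.1) of the 14478 genes averaging 1 TPM or more was fitted with limma 3.58.1 in R 4.3.3 (lmFit, eBayes with a mean-variance trend, no replicate block), with Benjamini-Hochberg adjustment over all of them. Fold changes are on that scale, which understates changes of low genes. Count models were not used. Positions and overlaps came from GENCODE release 44 on GRCh38, which held 14457 of the tested identifiers, and promoter windows from RefSeq (GRCh38.p14). Not all overlaps are given, and those with noncoding genes or pseudogenes are left out unless stated.

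Genes were named by rule: the 9 members; of the 69 other pathway genes, those significant above 1.5-fold and, in each role group, the significant gene with the smallest p in each direction; the 3 genes most like NFE2L2; genes named outside the rule are marked as such or, where a role group's flat genes are given, were chosen for their function after the values had been seen. The members and lists were chosen with earlier results of these data known. Alternatives were other pseudocounts (0.5 and 1), filters, scalings and forms of eBayes, a replicate block, each library left out in turn and, added after the data had been seen, mitochondrial genes left out and a correction for GC content and length (splines, 4 degrees of freedom for each). Splicing of these genes was not analysed here.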

Additional observations from a re-analysis of the deposited data

Results flagged for a closer look

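In each group of 4 libraries, a value was singled out when its gap to the nearest other value exceeded Dixon's 95% critical value as a share of the group's range; with 46 groups checked (the 9 members and 14 other pathway genes in both treatments), chance gives about 1 in 20. This held for 5 values. NQO1 had 498.97 TPM in LLY-283 replicate 4, against 454.41 to 460.58 TPM in the other 3. In the same library SQSTM1 had 337.08 TPM against 303.76 to 306.33 TPM, GSTM3 had 66.87 TPM against 62.37 to 62.94 TPM and SLC7A11 had 54.34 TPM against 58.76 to 59.61 TPM. That library also had the lowest mitochondrial share, 7.19%, and the part of this share in the 4 values was not tested. GSTM3 had 70.61 TPM in vehicle replicate 1, against 76.71 to 77.41 TPM in the other 3 vehicle libraries.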

How the results depend on the processing

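Among the 8 tested members, the number with an adjusted p-value under 0.05 was 0 as deposited and in 15 of 20 alternatives. It was 1 with quantile normalization (NQO1), 1 with median-of-ratios scaling (TXNRD1), 2 with the GC and length trend removed (KEAP1 and TXNRD1), 1 with that trend removed together with a replicate block (HMOX1, log2 fold change 0.14, adjusted p = 0.0432), and 0 to 1 with each library left out (NQO1, without LLY-283 replicate 4). Over all genes tested, quantile normalization gave 1871 higher and 1820 lower of 14478, and median-of-ratios scaling 1927 and 1866. The GC and length correction gave 2730 and 1558 of 14457, or 2292 and 1339 with the block. Without LLY-283 replicate 4 the numbers were 1502 and 2689 of 14516. NFE2L2, KEAP1, TXNRD1 and HMOX1 kept their sign in all alternatives. GCLC turned to -0.0019 with mitochondrial genes left out and ran from -0.020 to 0.038 with each library left out, and GCLM from -0.035 to 0.050. With the GC and length trend removed GCLC was at 0.092 and GCLM at 0.09, and neither was significant. SRXN1 turned to 0.012 with median-of-ratios scaling and to 0.057 with the GC and length trend removed, with or without the block. NQO1 turned to 0.0042 and 0.063 in the same alternatives. The log2 ratio of GCLM to GCLC ran from -0.061 to 0.068 and that of KEAP1 to NFE2L2 from 0.030 to 0.10 with each library left out.

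Of the other pathway genes, 4 were significantly higher as deposited, 2 without a filter and 2 with eBayes without a trend. With each library left out the number was 2 to 3 (2 without vehicle replicate 2, vehicle replicate 3 or LLY-283 replicate 3). It was 10 with the GC and length trend removed. As deposited 18 were significantly lower, and 15 to 27 with each library left out (27 without LLY-283 replicate 4). The number lower was 10 with that trend removed and 9 with the replicate block added to it. Over all genes, 1247 were higher as deposited, 1871 with quantile normalization, 1927 with median-of-ratios scaling, 2730 with the GC and length trend removed and 2292 with the block added. The number lower went from 2541 to 1820, 1866, 1558 and 1339 in the same order of alternatives. The causes were not tested. Libraries of the same number did not deviate together (correlations between -0.0851 and 0.032), so the numbers were not taken as pairs; the replicate block gave 0 significant members, and CUL3 lost the threshold with it (adjusted p = 0.0878). TPM keeps no depth, which limits what can be said of ME1 and other low genes.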
